A study of Homo sapiens with 9 samples.

Results

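The ligands and receptors of the platelet-derived growth factor (PDGF) and vascular endothelial growth factor (VEGF) pathways were followed through human extra-embryoids (hEEs), as 8 of the 36601 genes in the single-cell count tables. They were chosen by symbol, and all 8 were present in both libraries: the receptors *PDGFRA*, *PDGFRB*, *KDR* and *FLT1* and the ligands *PDGFA*, *PDGFB*, *PDGFC* and *VEGFA*. hEEs are 3D aggregates in which human pluripotent stem cells differentiate on their own into an inner embryonic compartment surrounded by a hypoblast-like layer. Of the 9 samples in the series, the 2 used here are single-cell RNA libraries of hEEs at day 4 (D4) and day 6 (D6), and the 7 bisulfite libraries were not analysed here. Both libraries came from untreated hEEs of the wild-type line ESI017, an established human embryonic stem cell line kept in expanded potential medium on mouse feeder cells, which were depleted before aggregation. Aggregates with visible inner and outer compartments were picked from wells of independent cultures, and the wells of a day were pooled before dissociation. Each day is therefore 1 library, the day cannot be told apart from the library, and no test between days or between cell groups was possible.

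PDGF ligands are secreted dimers that bind the receptor tyrosine kinases encoded by *PDGFRA* and *PDGFRB*. The A and C chains act mainly through the alpha receptor, whereas the B chain binds both. *VEGFA* encodes the principal angiogenic ligand, *KDR* encodes its main signalling receptor (VEGFR2), and *FLT1* encodes VEGFR1, which binds the ligand tightly, signals weakly and also exists as a soluble decoy. In mammalian embryos PDGF signalling is known for its part in primitive endoderm and mesoderm, and VEGF signalling for the first blood vessels and blood.

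There were 10943 cells in the D4 library and 11483 in that of D6, and 40 barcodes occurred in both. Cells were kept within fixed limits on unique molecular identifiers (UMIs, 1 per captured transcript) and with at most 10% mitochondrial UMIs. This left 9151 cells of D4 with a median of 12717 UMIs and a lowest total of 3439, and 10097 of D6 with a median of 12960 and a highest total of 27461. Cell groups were defined by gates on raw UMIs and are not the clusters of the study. The embryonic gate (at least 5 UMIs of *POU5F1*, at least 1 of *SOX2* and at most 2 of *FN1*) held 3716 cells of the D4 library and 5054 of the D6 library. The hypoblast gate (at least 3 UMIs of *FN1*, 0 of *SOX2* and at most 5 of *POU5F1*) held 4061 and 3567. The HAND1-glycophorin gate (at least 2 UMIs of *HAND1* and at least 1 of *GYPE* and *GYPB* together) held 78 cells at D6 and 2 at D4, so its D4 values are given only as UMIs. Of the 78 cells, 32 also met the hypoblast gate and 2 the embryonic gate, and 1374 cells of D4 and 1432 of D6 met no gate. Median mitochondrial shares in the embryonic and hypoblast gates were 3.82% and 3.75% at D4 and 1.93% and 2.10% at D6, and the HAND1-glycophorin gate of D6 had 3.49%.

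The gates carried the markers of their names. All 9 hypoblast markers were at least 2-fold higher in the hypoblast gate than in the embryonic gate on both days, among them *GATA6* at 297 against 2.91 counts per 1000000 UMIs (CPM) at D6. Of 8 embryonic markers, 7 were at least 2-fold lower, and *PODXL*, at 387 against 189 CPM at D4 and 750.3 against 231 at D6, was higher. *FN1*, *SOX2* and *POU5F1* defined these gates and are no evidence for them. In the HAND1-glycophorin gate, 9 of 9 mesoderm markers with enough UMIs, the gate gene *HAND1* among them, were higher than in the embryonic gate, including *MESP1* at 209 against 1.78 CPM. Of the erythroid markers, *GATA1* and the globin genes *HBE1*, *HBZ*, *HBG1* and *HBG2* were at 0 in this gate, while *GYPB* and *GYPE* were used to define it. *KLF1*, also on the erythroid list, was higher there, at 11.1 CPM from 12 UMIs, against 0.615 in the embryonic gate and 0.479 in the hypoblast gate. Of the 12 endothelial markers, 8 were at 0 there, among them *CDH5*, *PECAM1*, *TAL1* and *CD34*, and *ETV2*, a regulator of the first endothelial and blood progenitors, was at 11.1 CPM from 12 UMIs. Of 5 mural markers, 1 was higher in the hypoblast than in the embryonic gate at D6 and 1 lower (*CSPG4*, 0.311 against 1.32 CPM). The higher one, *RGS5*, was at 173 CPM in the hypoblast gate of D6, 85.9 in the HAND1-glycophorin gate and 3.66 in the embryonic gate.

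Levels are UMIs of a gene over the UMIs of all genes in the cells of a gate, in CPM, with exact 95% Poisson intervals in square brackets. A gene was called different between cell groups when it was at least 2-fold apart and had at least 10 UMIs over both, and log2 ratios have exact conditional binomial intervals. All intervals cover counting error only and say nothing about the spread between cells or between cultures. Levels are compared between cell groups for 1 gene at a time and not between genes.

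**Figure D1:**
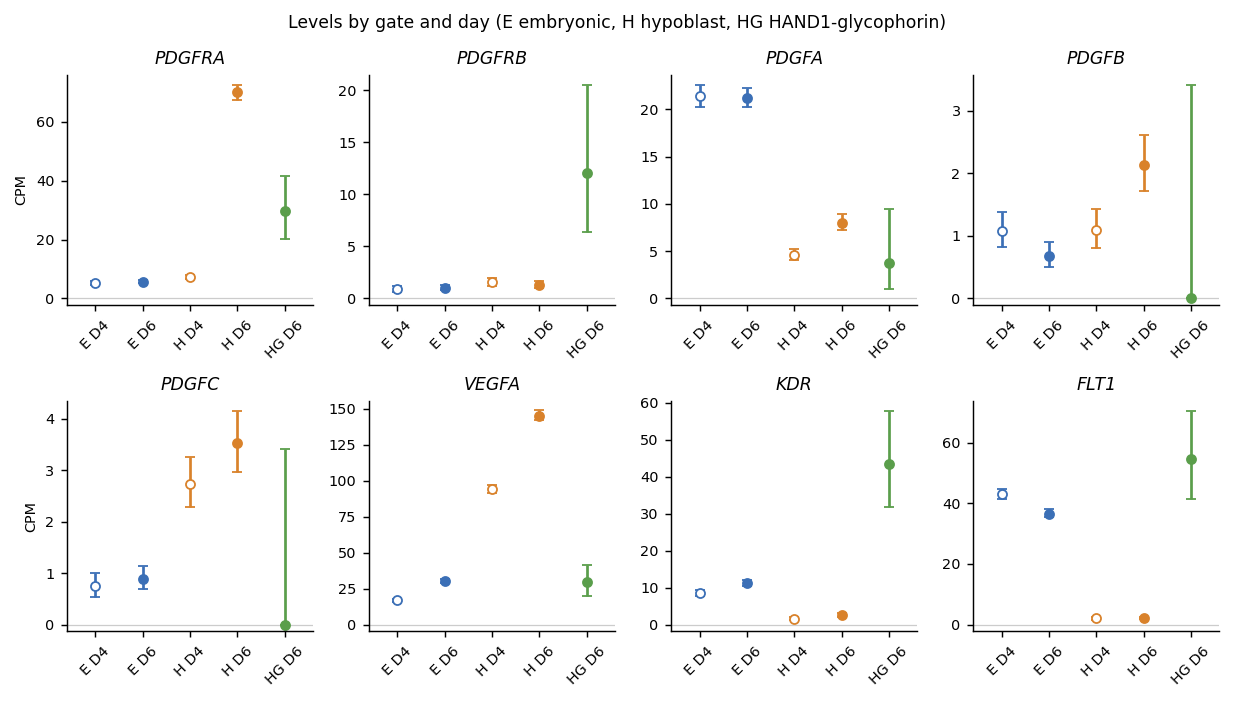
Level of each of the 8 genes in CPM (vertical axis, linear, own scale per panel) in the embryonic gate (E), the hypoblast gate (H) and the HAND1-glycophorin gate (HG) at D4 (open circles) and D6 (filled circles), with 95% Poisson intervals. *PDGFRA* stood at 70.1 in the hypoblast gate of D6, *VEGFA* was highest in the hypoblast gate of both days, *FLT1* lay between 36.6 and 54.5 in all plotted groups but the hypoblast gate, and *PDGFRB* reached 12.0 in the HAND1-glycophorin gate alone.

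The first question was how receptors and ligands were divided between the embryonic and hypoblast compartments. At D4, 2 of the 8 genes were called higher in the hypoblast gate (*PDGFC* and *VEGFA*), against 15.2% of all genes with enough UMIs. A further 3 were called lower (*PDGFA*, *KDR* and *FLT1*), against 16.5% of all genes. At D6, 4 were called higher (*PDGFRA*, *PDGFB*, *PDGFC* and *VEGFA*), against 14.7% of all genes, and the same 3 as at D4 were called lower, against 22.0%. The median log2 ratio of the 8 genes was 0.26 at D4 and 1.00 at D6, beside −0.05 and −0.18 over all genes.

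*PDGFRA* (ENSG00000134853), the alpha receptor of the PDGF ligands, was low in both compartments at D4. Its level was 5.12 [4.55, 5.74] in the embryonic gate and 7.30 [6.55, 8.10] in the hypoblast gate, a log2 ratio of 0.51 [0.28, 0.74]. At D6 it was 5.63 [5.10, 6.19] and 70.1 [67.6, 72.7], a log2 ratio of 3.64 [3.49, 3.79]. A *PDGFRA* UMI was found in 6.48% of hypoblast-gate cells at D4 and 42.6% at D6, and in 7.32% and 7.76% of embryonic-gate cells. Embryonic-gate cells were deeper, with medians of 15157 and 14225 UMIs against 11012 and 10902. With every cell thinned to the lower UMI limit, the shares were 2.19% and 18.4% in the hypoblast gate and 1.48% and 1.54% in the embryonic gate, so the difference at D6 was present at equal depth. *APOA1*, a hypoblast transcript, gave a reference for stray RNA: at D6 its level in the embryonic gate was 0.752% of that in the hypoblast gate. The same percentage of the hypoblast level of *PDGFRA* would give 0.527 CPM, and the embryonic gate had 10.7 times as much.

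*PDGFRB* (ENSG00000113721), the beta receptor, was low in both compartments. It was at 0.882 [0.657, 1.16] in the embryonic gate and 1.53 [1.20, 1.92] in the hypoblast gate at D4, and at 1.03 [0.812, 1.29] and 1.32 [0.992, 1.71] at D6. The highest share of cells with a UMI was 1.72%, in the hypoblast gate of D4, and the log2 ratios of 0.79 [0.25, 1.34] and 0.36 [−0.17, 0.87] were under 2-fold. The hypoblast level at D6 was uneven: the 67 cells with a *HAND1* UMI held 11 of the 55 UMIs, at 11.2 CPM against 1.08 in the rest of the gate.

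The PDGF ligands were divided in opposite directions. *PDGFA* (ENSG00000197461), the A chain, was higher in the embryonic gate, at 21.4 [20.2, 22.6] and 21.2 [20.2, 22.3] at D4 and D6, against 4.62 [4.03, 5.27] and 8.02 [7.18, 8.93] in the hypoblast gate. The log2 ratios of hypoblast over embryonic were −2.21 [−2.42, −2.00] and −1.40 [−1.58, −1.23]. *PDGFC* (ENSG00000145431), a ligand chain that is secreted in latent form and activated by proteolysis, had the reverse arrangement at a low level: 0.744 and 0.895 in the embryonic gate and 2.74 and 3.52 in the hypoblast gate. Its log2 ratios were 1.88 [1.37, 2.41] and 1.97 [1.55, 2.41]. *PDGFB* (ENSG00000100311), the B chain, was level at D4, with 1.07 and 1.09 and a log2 ratio whose interval ran from −0.54 to 0.57. At D6 it was at 0.682 [0.507, 0.896] in the embryonic gate and 2.13 [1.71, 2.62] in the hypoblast gate, a log2 ratio of 1.64 [1.13, 2.17] that rests on 51 and 89 UMIs.

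The VEGF ligand gene *VEGFA* and the receptor genes *KDR* and *FLT1* were higher in different compartments. *VEGFA* (ENSG00000112715) was at 17.0 [16.0, 18.1] in the embryonic gate and 94.4 [91.6, 97.1] in the hypoblast gate at D4, and at 30.1 [28.9, 31.4] and 145 [142, 149] at D6. A *VEGFA* UMI was present in 60.2% and 73.7% of hypoblast-gate cells on the 2 days and in 22.1% and 32.7% of embryonic-gate cells, and after thinning in 27.9% and 35.9% against 5.60% and 9.64%. The log2 ratios were 2.47 [2.37, 2.57] and 2.27 [2.20, 2.34]. Both receptors were higher on the embryonic side.

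*FLT1* (ENSG00000102755) had the largest ratio of the 8 genes in this comparison. It was at 42.9 [41.3, 44.7] in the embryonic gate and 2.05 [1.66, 2.50] in the hypoblast gate at D4, 21.0-fold apart, and at 36.6 [35.3, 38.0] and 2.13 [1.71, 2.62] at D6, 17.2-fold apart. UMIs occurred in 44.4% and 38.8% of embryonic-gate cells and in 2.29% and 1.82% of hypoblast-gate cells. The hypoblast level was 4.77% and 5.82% of the embryonic level, while the embryonic transcripts *UTF1* and *L1TD1* were at 1.67% and 25.2% at D4 and at 3.88% and 26.6% at D6. Stray RNA in the proportion of *UTF1* would give *FLT1* levels of 0.716 and 1.42 CPM in the hypoblast gate. The measured level at D6 was uneven, at 40.8 in the 67 cells with a *HAND1* UMI and 1.20 in the other cells of the gate. The part of stray RNA in it was not tested, and it is not read as expression in hypoblast-gate cells at large.

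*KDR* (ENSG00000128052) was at 8.55 [7.81, 9.34] and 11.2 [10.4, 12.0] in the embryonic gate and at 1.57 [1.23, 1.97] and 2.63 [2.16, 3.17] in the hypoblast gate. Its log2 ratios were −2.45 [−2.82, −2.09] at D4 and −2.08 [−2.39, −1.80] at D6. A small set of *HAND1* cells carried much of what the hypoblast gate held at D6. The 67 hypoblast-gate cells with a *HAND1* UMI, of 3567, held 42 of its 110 *KDR* UMIs and 40 of its 89 *FLT1* UMIs. Without them the levels were 1.67 for *KDR* and 1.20 for *FLT1*, and the log2 ratios over the embryonic gate became −2.74 and −4.93.

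**Figure D2:**
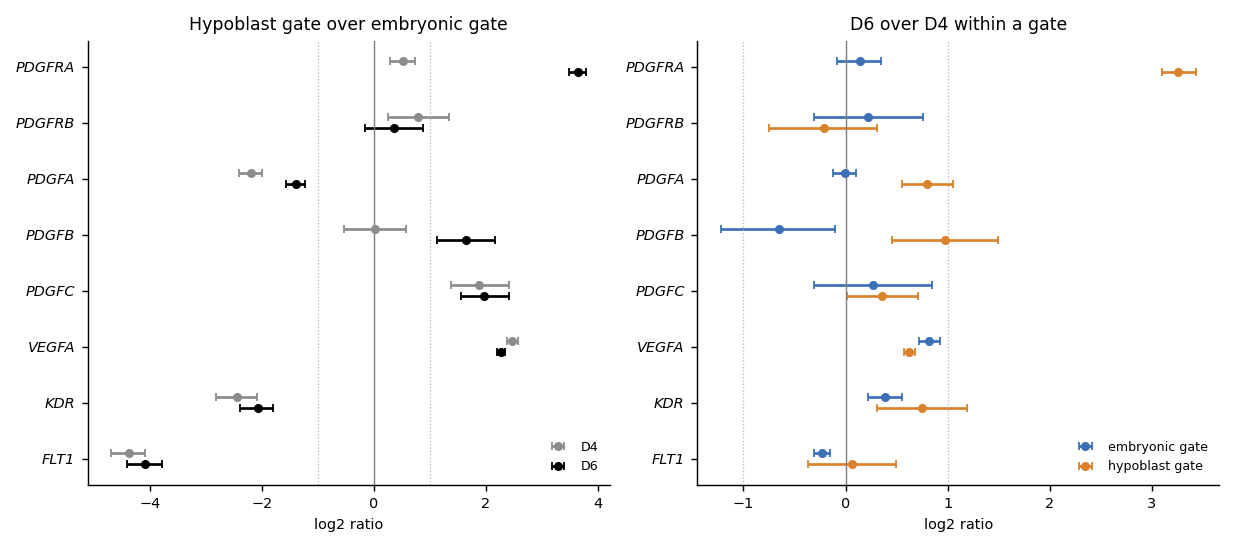
Log2 ratio of the level in the hypoblast gate over that in the embryonic gate at D4 (grey) and D6 (black), left, and of D6 over D4 within the embryonic gate (blue) and the hypoblast gate (orange), right. Points are ratios with 95% intervals and dotted lines mark 2-fold; *PDGFRA* moved from 0.51 to 3.64 on the left, and its hypoblast value of 3.26 was the only one of the 16 on the right to pass 2-fold.

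In RefSeq (GRCh38.p14), *PDGFRA* lies at chr4:54229293-54298245, *KDR* at chr4:55078481-55125595 and *PDGFC* at chr4:156760454-156971799. *PDGFRB* lies at chr5:150113839-150155845, *VEGFA* at chr6:43770211-43786487, *PDGFA* at chr7:497258-520700, *FLT1* at chr13:28300346-28495128 and *PDGFB* at chr22:39223359-39244982. Sequence upstream of the start was at hand for 5 of the 8 genes: *PDGFRA*, *PDGFRB*, *PDGFA*, *KDR* and *FLT1*. The 250 bases before the start are shown for the receptor that was higher in the hypoblast gate at D6 and for the receptors that were lower, each 5′ to 3′ on the strand of its gene. Capitals mark the GC box core GGGCGG, searched with its reverse complement CCGCCC, to which SP family factors are known to bind. The windows are chr4:54229043-54229292 on the plus strand for *PDGFRA*, chr4:55125596-55125845 on the minus strand for *KDR* and chr13:28495129-28495378 on the minus strand for *FLT1*.

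PDGFRA: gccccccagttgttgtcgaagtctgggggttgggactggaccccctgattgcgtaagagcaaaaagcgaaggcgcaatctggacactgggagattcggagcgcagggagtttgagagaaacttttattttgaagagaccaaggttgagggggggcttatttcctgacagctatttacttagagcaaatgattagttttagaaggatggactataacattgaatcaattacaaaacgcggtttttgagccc

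KDR: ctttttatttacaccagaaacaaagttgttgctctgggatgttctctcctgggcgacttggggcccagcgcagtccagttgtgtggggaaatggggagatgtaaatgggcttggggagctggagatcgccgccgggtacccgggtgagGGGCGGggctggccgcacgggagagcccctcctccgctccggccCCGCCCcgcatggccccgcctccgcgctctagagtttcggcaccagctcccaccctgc

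FLT1: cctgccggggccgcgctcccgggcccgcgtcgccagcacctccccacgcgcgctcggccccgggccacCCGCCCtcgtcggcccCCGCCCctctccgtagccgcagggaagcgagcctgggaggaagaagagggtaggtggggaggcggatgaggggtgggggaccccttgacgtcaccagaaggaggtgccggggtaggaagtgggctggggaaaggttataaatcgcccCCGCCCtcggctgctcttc

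The core occurred 0 times in the *PDGFRA* window, 2 times in that of *KDR* and 3 times in that of *FLT1*, and at least once in 42.6% of 35116 windows of the same length. A second annotated start of *PDGFRA* had 2 matches to the core and 1 to the SOX letters given next. The GATA letters GATAA (both strands) were found in 20.4% of all windows and the SOX letters ACAAT in 24.6%, and neither was found in the 3 windows shown. A match is a description of letters and not a binding site.

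The next question was what changed between D4 and D6 within each compartment. In the embryonic gate 0 of the 8 genes were called higher, against 5.43% of all genes, and 0 were called lower, against 2.02%. *VEGFA* came nearest, from 17.0 to 30.1, a log2 ratio of 0.82 [0.72, 0.93]. *KDR* moved by 0.39 [0.22, 0.55] and *FLT1* by −0.23 [−0.31, −0.15]. *PDGFRA* and *PDGFA* were level, at 0.14 [−0.08, 0.35] and −0.01 [−0.12, 0.10].

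In the hypoblast gate 1 of the 8 was called higher at D6, *PDGFRA*, against 6.40% of all genes, and 0 were called lower, against 6.02%. *PDGFRA* was 9.60-fold higher, from 349 UMIs in 263 cells to 2927 UMIs in 1520 cells, a log2 ratio of 3.26 [3.10, 3.43]. *PDGFB* was just short of the 2-fold limit at 0.97 [0.46, 1.49], and it was called with cells thinned or with the gates made stricter or looser. *PDGFA* at 0.80 [0.55, 1.05], *KDR* at 0.75 [0.31, 1.19] and *VEGFA* at 0.62 [0.57, 0.68] also had intervals above 0, and none reached 2-fold. Without the cells that had a *HAND1* UMI, the value of *KDR* was 0.13 [−0.37, 0.63] and that of *FLT1* moved from 0.06 to −0.76 [−1.29, −0.25]. The hypoblast markers *APOA1*, *APOA2* and *GATA6* were also called higher at D6 in this gate, *APOA1* from 1621 to 11926 CPM, and the other 6 of the 9 on this list were not. Markers of other cell types moved in the same gate: 6 of 10 mesoderm markers were called higher, among them *MIXL1* from 27.6 to 84.0 CPM and *TWIST1* from 23.4 to 63.3. The summed level of the list, 839 at D4 and 842 at D6, was mostly *VIM*, which was at 770.0 and 657. Of the 5 mural markers *RGS5* was called higher, from 67.6 to 173 CPM, and *CSPG4* lower, from 0.794 to 0.311. These genes were not confined to a few cells: at D6 *MIXL1*, *TWIST1* and *RGS5* had UMIs in 36.8%, 38.5% and 57.1% of hypoblast-gate cells, against 1.88% for *HAND1*. The part of cells with these genes in the *PDGFRA* difference was not tested beyond the *HAND1* cells, without which *PDGFRA* at D6 was at 70.7.

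Because *APOA1* and *PDGFRA* were both higher at D6, the hypoblast gate of each library was split into quartiles of the *APOA1* share of a cell's UMIs, which are a range and not cell types. At D4 *PDGFRA* was at 2.40, 3.42, 5.39 and 17.5 from the lowest to the highest quartile. At D6 it was at 30.1, 60.5, 83.1 and 105. It was higher in cells with more *APOA1* on both days, with log2 ratios of highest over lowest quartile of 2.86 [2.28, 3.50] and 1.80 [1.62, 1.99]. The lowest quartile of D6, whose cells had at most 4969 *APOA1* CPM, still had more *PDGFRA* than the highest quartile of D4, whose cells had at least 2010. Between 207 and 332 cells of a library lay within 10% of a quartile limit.

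None of the VEGF genes rose with *APOA1* as steeply as *PDGFRA*, and *VEGFA* rose slightly at D6 only. *VEGFA* was at 91.9 and 95.5 in the lowest and highest quartiles of D4 and at 129 and 158 at D6, log2 ratios of 0.06 [−0.07, 0.18] and 0.29 [0.18, 0.39]. *KDR* and *FLT1* ran the other way, with −1.18 [−2.21, −0.21] and −1.37 [−2.38, −0.43] at D4 and −2.18 [−3.27, −1.21] and −3.05 [−4.43, −1.91] at D6. At D6 the lowest quartile also held most of the *HAND1*, at 38.0 CPM against 0.678 in the highest, and the part of those cells in the *KDR* and *FLT1* values was not tested within quartiles. *PDGFB* had a log2 ratio of 1.27 [0.34, 2.28] at D6 and of 0.01 [−1.37, 1.40] at D4, and the difference between days was not tested.

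**Figure D3:**
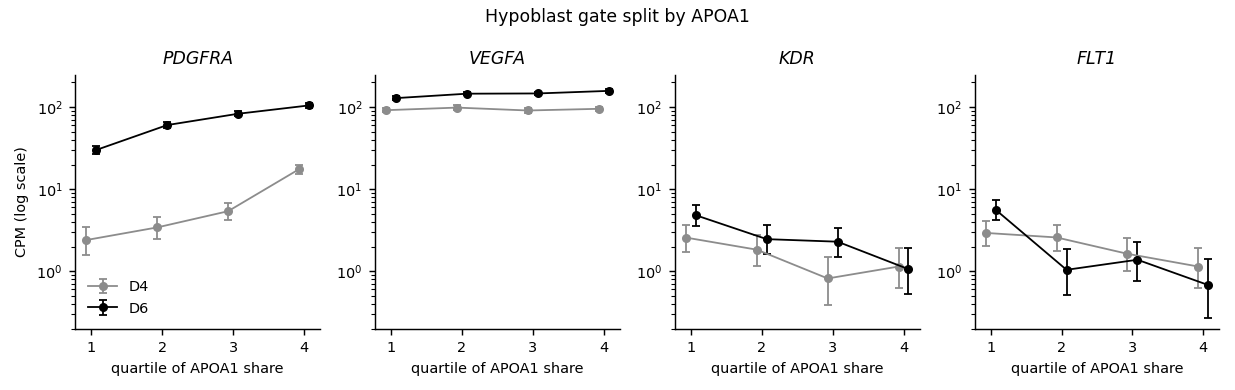
Level in CPM (log scale) of *PDGFRA*, *VEGFA*, *KDR* and *FLT1* in hypoblast-gate cells split into quartiles of their *APOA1* share, from 1 (lowest) to 4 (highest), at D4 (grey) and D6 (black), with 95% Poisson intervals. *PDGFRA* went from 2.40 to 17.5 at D4 and from 30.1 to 105 at D6, *VEGFA* stayed between 91.1 and 158, and *KDR* and *FLT1* were highest in the lowest quartile.

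Finer gates on single markers showed where within a compartment the genes varied. In the embryonic gate, cells with at least 10 UMIs of *TAGLN*, which encodes an actin-binding protein, had more *PDGFB* than the rest: 3.43 against 0.763 at D4, a log2 ratio of 2.17 [1.36, 2.95], and 3.00 against 0.629 at D6, 2.26 [0.57, 3.58]. The D4 set of 363 cells held 23 of the 62 *PDGFB* UMIs of its gate, and 96 cells met this limit at D6. Cells with at least 2 UMIs of *TFAP2A*, an amnion and surface ectoderm transcription factor, numbered 350 at D6 and had less *KDR*, 5.06 against 11.6, a log2 ratio of −1.20 [−1.82, −0.64]. They had more *PDGFA*, 31.6 against 20.5, which is 0.62 [0.38, 0.86]. Cells with at least 3 UMIs of *CYP26A1*, a retinoic acid hydroxylase, were within 2-fold of the rest for all 8 genes on both days.

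In the hypoblast gate, cells with an *ISL1* UMI had less *PDGFRA* than the rest on both days, 3.43 against 8.59 at D4 and 43.8 against 71.7 at D6, log2 ratios of −1.32 [−1.83, −0.85] and −0.71 [−1.01, −0.43]. Cells with at least 5 UMIs of *CER1*, a secreted inhibitor of NODAL and BMP signals, had more *FLT1* than the rest at D4, 4.24 against 1.82, and at D6, 10.5 against 1.94. The D6 value rests on 10 UMIs in a gate of 59 cells. Cells with at least 3 UMIs of *NPPB* had more *PDGFB* at D6, 4.30 against 1.80, a log2 ratio of 1.26 [0.52, 1.95], and at D4 0.52 [−0.78, 1.62]. Cells with *APOA4* or *LCN15* UMIs numbered 976 at D4 and 2580 at D6, and at D6 they had less *KDR* and *FLT1*, −1.49 [−2.06, −0.93] and −1.81 [−2.46, −1.18]. At D4 these log2 ratios were −1.17 [−2.29, −0.20] and −0.43 [−1.22, 0.29]. The part of the *HAND1* cells in these values was not tested. Cells with at least 2 *FGFBP3* UMIs had less *PDGFRA* at D4, 2.49 against 7.51 from 5 UMIs, and 89.4 against 69.9 at D6.

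Cells with at least 2 UMIs of *TBXT*, the transcription factor of the primitive streak, were few, 15 at D4 and 63 at D6. At D6 they had *PDGFRA* at 81.6 [65.5, 100.4] and *PDGFA* at 28.4 [19.3, 40.3]. The gate held both kinds of cell, with *APOA1* at 5221 CPM and *FN1* at 536. The 37 with at least 3 *FN1* UMIs had *PDGFRA* at 121 [95.1, 151] and *PDGFA* at 12.7, and the 26 with at most 2 had *PDGFRA* at 28.2 [15.0, 48.2] and *PDGFA* at 49.9 [31.6, 74.8]. At D4 the 15 cells had 12 UMIs of *PDGFRA* in 7 cells.

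**Figure D4:**
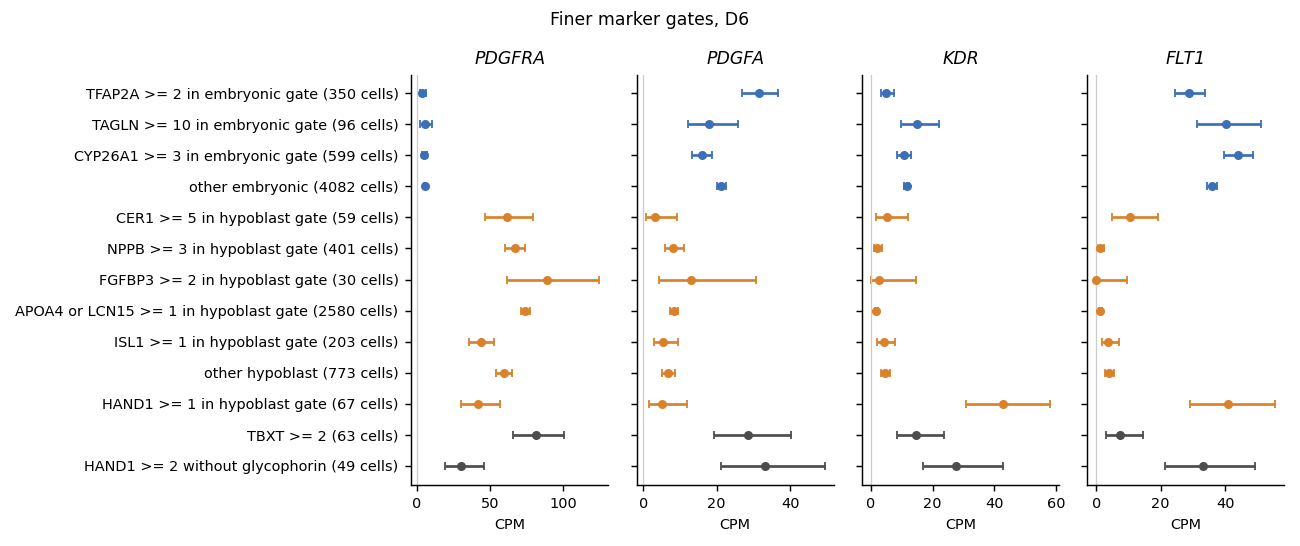
Level in CPM of *PDGFRA*, *PDGFA*, *KDR* and *FLT1* at D6 in finer gates within the embryonic gate (blue) and the hypoblast gate (orange) and in gates over all kept cells (dark grey), with 95% Poisson intervals and the number of cells beside each name. *PDGFRA* was at 43.8 or less in *ISL1* and *HAND1* cells of the hypoblast gate, and *KDR* and *FLT1* reached 42.9 and 40.8 in the 67 *HAND1* cells of that gate; gates may share cells.

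The last question was which receptors and ligands marked the HAND1-glycophorin cells of D6. Compared with the embryonic gate, 3 of the 8 genes were called higher (*PDGFRA*, *PDGFRB* and *KDR*), against 13.4% of all genes, and 1 lower (*PDGFA*), against 9.71%. Compared with the hypoblast gate, 3 were called higher (*PDGFRB*, *KDR* and *FLT1*), against 13.2%, and 3 lower (*PDGFRA*, *PDGFA* and *VEGFA*), against 9.08%. The 32 cells that met both of these gates were counted on both sides, while the intervals take the groups as separate. All 4 receptors were detected in these 78 cells, whose median was 12786 UMIs. The part of their higher mitochondrial share, 3.49%, in these comparisons was not tested. Hypoblast transcripts were present in them too: *APOA1* was at 1111 CPM, against 89.6 in the embryonic gate and 11926 in the hypoblast gate, and 7 of 9 hypoblast markers were higher than in the embryonic gate and 7 lower than in the hypoblast gate. The *APOA1* level was uneven, as 1 cell held 371 of the 1203 UMIs. A UMI was found in 69.2% of the 78 cells, against 61.6% of embryonic-gate cells.

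*KDR* had 47 UMIs in 20 of the 78 cells, a level of 43.4 [31.9, 57.7]. That was 3.89-fold the embryonic level, a log2 ratio of 1.96 with an interval above 2-fold, and 16.5-fold the hypoblast level, 4.04 [3.52, 4.55]. *FLT1* had 59 UMIs in 33 cells, 54.5 [41.5, 70.3], which was 25.6-fold the hypoblast level but 1.49-fold the embryonic level, 0.57 [0.18, 0.95]. *FLT1* therefore separated these cells from the hypoblast gate and not, at 2-fold, from the embryonic gate.

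*PDGFRA* lay between the compartments, with 32 UMIs in 18 cells, 29.6 [20.2, 41.7]. The part of cells with hypoblast transcripts in this level was not tested beyond the split by the hypoblast gate given below. Its log2 ratio was 2.39 [1.83, 2.91] over the embryonic gate and −1.25 [−1.80, −0.74] over the hypoblast gate. *PDGFRB* had 13 UMIs in 12 cells, 12.0 [6.39, 20.5], against 1.03 and 1.32 in the other gates, log2 ratios of 3.54 [2.57, 4.40] and 3.19 [2.19, 4.08]. After thinning, 5 of the 78 cells still had a *PDGFRB* UMI (6.41%), against 0.376% of embryonic-gate cells and 0.589% of hypoblast-gate cells.

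None of the 4 ligands was called higher in these cells than in either compartment. *VEGFA* had 32 UMIs, 29.6 [20.2, 41.7], level with the embryonic gate at −0.03 [−0.58, 0.47] and below the hypoblast gate at −2.30 [−2.85, −1.80]. *PDGFA* had 4 UMIs, 3.69 [1.01, 9.46], and its log2 ratios were −2.52 [−4.40, −1.16] and −1.12 [−3.00, 0.25], the latter with an interval that includes 0. *PDGFB* and *PDGFC* had 0 UMIs, with an exact 95% upper limit of 3.41, so a level like that of the embryonic gate was not detectable at this depth.

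The values depended in part on which *HAND1* cells were counted. The 46 cells outside the hypoblast gate had *KDR* at 29.4 [17.1, 47.1], *FLT1* at 55.3 [37.9, 78.1], *PDGFRB* at 8.65 [2.81, 20.2] and *PDGFRA* at 17.3 [8.29, 31.8], and the 32 inside it had 59.5, 53.5, 15.9 and 43.6. The 49 *HAND1* cells of D6 without a glycophorin UMI had *KDR* at 27.7 [16.9, 42.8] and *FLT1* at 33.2 [21.3, 49.4]. They had *PDGFA* at 33.2 [21.3, 49.4] from 24 UMIs, against 3.69 in the cells with glycophorin. When all cells with at least 2 *HAND1* UMIs were counted, the log2 ratio of *PDGFA* was −0.45 [−1.05, 0.08] over the embryonic gate and 0.95 [0.34, 1.51] over the hypoblast gate, so neither lower call held. At D4 the 2 cells of the HAND1-glycophorin gate had 2 UMIs of *KDR* in 1 cell, 1 of *VEGFA* and 0 of the other 6 genes.

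**Figure D5:**
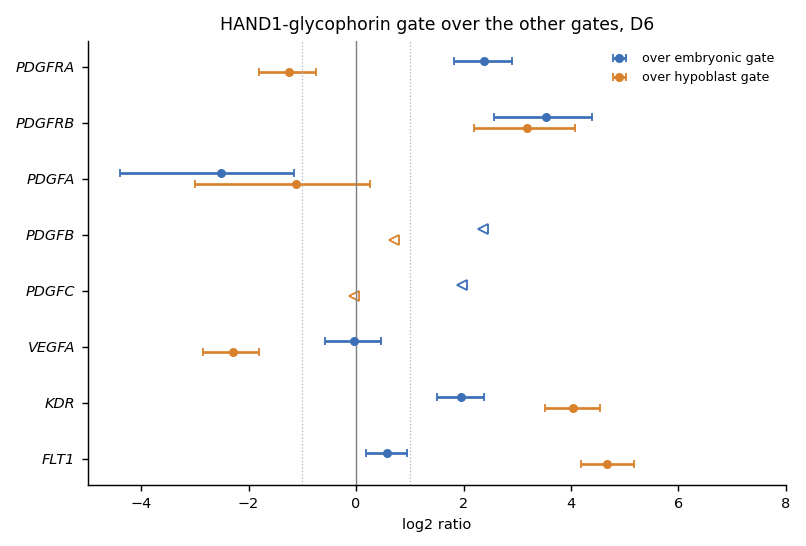
Log2 ratio of the level in the 78 HAND1-glycophorin cells of D6 over the embryonic gate (blue) and the hypoblast gate (orange), with 95% intervals; dotted lines mark 2-fold and open triangles the upper limit for genes with 0 UMIs. *PDGFRB* and *KDR* were above 0 on both sides, *FLT1* was at 0.57 and 4.68, and *PDGFRA* was above the embryonic and below the hypoblast gate.

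Cells that held UMIs of a receptor together with another member were counted beside the product of the separate shares, as a description. In the 78 HAND1-glycophorin cells, 8 had both *PDGFRA* and *KDR*, where the product gave 4.62, and 9 had both *KDR* and *FLT1*, where it gave 8.46. In the embryonic gate of D6, 306 cells had both VEGF receptors (product 267), and 244 had *KDR* with its ligand *VEGFA* (product 225). In the hypoblast gate of D6, 152 cells had *PDGFRA* and *PDGFA* (product 122), 62 had *PDGFRA* and *PDGFC* (product 59.7), 50 had *PDGFRA* and *KDR* (product 32.8) and 8 had both *KDR* and *FLT1* (product 1.40). The other pairs counted in that gate were below the product, before and after thinning. Before thinning, 51 cells had *KDR* and *VEGFA* (product 56.8), 40 had *FLT1* and *VEGFA* (product 47.9) and 18 had *PDGFRA* and *PDGFRB* (product 23.4). After thinning, the embryonic cells with both VEGF receptors numbered 16 (product 20.9) and those with *KDR* and *VEGFA* 19 (product 17.8). HAND1-glycophorin cells with *PDGFRA* and *KDR* numbered 3 after thinning (product 0.615), and those with *KDR* and *FLT1* also 3 (product 0.923). In the hypoblast gate the thinned numbers were 23 for *PDGFRA* and *PDGFA* (product 16.6), 13 for *PDGFRA* and *PDGFC* (product 6.99), 9 for *PDGFRA* and *KDR* (product 5.33) and 3 for *KDR* and *FLT1* (product 0.195).

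Other genes of the pathways were counted from lists by role. The counts of these short lists stand beside the shares of all genes called. For hypoblast over embryonic these were 15.2% higher and 16.5% lower at D4, and 14.7% higher and 22.0% lower at D6. Of the 4 other ligands with enough UMIs (*PDGFD*, *PGF*, *VEGFB* and *VEGFC*), 1 was called higher in the hypoblast than in the embryonic gate at D4, and 2 higher and 1 lower at D6. *PGF*, placental growth factor and a ligand of the FLT1 receptor, was at 42.5 in the HAND1-glycophorin gate against 4.30 in the embryonic and 11.7 in the hypoblast gate. Of the 5 other receptors and co-receptors with enough UMIs, 2 were called higher in the hypoblast gate and 3 lower on each day. *KIT*, the stem cell factor receptor, was higher in the hypoblast gate, at 26.4 against 5.80 at D4 and 28.0 against 12.8 at D6. The VEGF co-receptor gene *NRP1* was also higher there, at 16.1 against 0.519 at D4 and 17.3 against 0.548 at D6. *NRP2* went the other way, at 5.98 against 13.8 and 3.33 against 10.1. The VEGF co-receptor gene *NRP2* was at 178 in the HAND1-glycophorin gate against 10.1 in the embryonic gate and 3.33 in the hypoblast gate, while *NRP1*, at 24.0, was above the embryonic gate (0.548) and within 2-fold of the hypoblast gate (17.3). *CSF1R* and *FLT3* were at 0 in the HAND1-glycophorin gate, and in the other gates of D6 they were below the 3.41 CPM upper limit of such a 0.

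Of the 6 genes for ligand processing and binding, 2 were called higher in the hypoblast gate on each day, *HSPG2* (perlecan, a basement membrane proteoglycan that binds growth factors) and *FURIN* (a protease that cleaves ligand precursors), and 3 were called lower at D4 and 2 at D6. *PLAU*, the urokinase protease, was at 53.6 in the HAND1-glycophorin gate against 5.41 in the embryonic gate. Of 10 signal transduction genes, 3 were called higher and 0 lower in the hypoblast gate on each day, among them the adaptor *SHB* at 52.0 against 12.6 at D4 and 33.7 against 10.4 at D6. Between D4 and D6, 0 of the 10 were called within either compartment. Few genes of any kind were: 5.43% of all genes were called higher and 2.02% lower in the embryonic gate, and 6.40% and 6.02% in the hypoblast gate. Of 8 feedback and early target genes, 1 was called higher and 1 lower in the hypoblast gate at D4, and 2 higher and 2 lower at D6. *SPRY2*, an inhibitor of receptor tyrosine kinase signalling, was higher in the hypoblast gate on both days, 74.8 against 29.9 at D4 and 103 against 28.7 at D6. The ERK phosphatase *DUSP6* was called higher at D6, 129.7 against 57.6. At D4 it was within 2-fold, 148 against 91.6, so its hypoblast level was not higher at D6 than at D4. *EGR1* was called lower at D6, 35.6 against 121, and was within 2-fold at D4, 47.0 against 70.8. *MYC* was lower on both days, 3.30 against 33.8 at D4 and 4.38 against 44.1 at D6. *SPRY1* was the one gene of this list called between days in the hypoblast gate, from 15.6 at D4 to 43.8 at D6.

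Of 12 hypoxia targets, a class to which *VEGFA* belongs, 0 were called higher in the hypoblast gate than in the embryonic gate at D4 and 1 lower, *SLC2A1*. At D6, 3 were called higher and 3 lower: *P4HA1* was at 319 against 102 and *ADM* at 313 against 112, whereas *HILPDA* was at 66.6 against 169 and *PGK1* at 621 against 1302. The median log2 ratio of the list was −0.13 at D4 and −0.10 at D6, beside −0.05 and −0.18 over all genes. According to the study, aggregates were cultured under lowered oxygen, a condition shared by all cells here. The part of hypoxia in the *VEGFA* level was not tested. In the HAND1-glycophorin gate 5 of the 12 were lower than in the embryonic gate, against 9.71% of all genes. The 1 called higher was *PDK1*, against 13.4% of all genes. Of the other marker lists, trophoblast markers were at 0 for 6 of 9 in that gate, and these 6 were below the 3.41 CPM upper limit of a 0 in the other gates of D6 too. *GATA3*, which is also made outside trophoblast, was at 222 in the hypoblast gate and 4.89 in the embryonic gate at D6.

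The genes whose profiles over the 6 gate-by-day groups lay closest to each member were ranked by the root mean square difference of centred log2 levels, among 10434 genes at 10 or more CPM in some group. For *PDGFRA* these were *SLC39A4* (0.47), *MORC4* (0.53) and *RCBTB2* (0.55), and for *PDGFRB* *NDUFA6-DT* (0.15), *PRCD* (0.19) and *ETV2* (0.22). For the ligands they were *LRIG1*, *EPHA1* and *OSBPL10* for *PDGFA*, *RPS27L*, *FGFR1* and *EZR* for *PDGFB*, *HLA-C*, *ADM* and *CKB* for *PDGFC*, and *LAMB1*, *DSP* and *COCH* for *VEGFA*. *CNKSR3*, *RUNX1T1* and *STARD9* lay closest to *KDR*, and *NPW*, *GFPT2* and *GLI2* to *FLT1*. The profiles add 1 CPM to each level before the logarithm, which flattens genes near that level. *PDGFB* and *PDGFC* had 0 UMIs in the HAND1-glycophorin gate of D6, where *RPS27L* was at 132 CPM and *HLA-C* at 121. Their matches are therefore not read as shared expression. The ranking leans on the D4 HAND1-glycophorin group of 2 cells: without it, 3 of the 24 named genes remained among the nearest 3 (*SLC39A4* for *PDGFRA*, *EPHA1* for *PDGFA* and *GLI2* for *FLT1*), and the gene nearest to *PDGFRA* became *LRRN4* (0.23).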

How the data were processed

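For both libraries the authors deposited UMI counts of 36601 genes in the cells called by Cell Ranger 6.0.1 on hg38. These counts were not normalized. The submitters' notes also name Seurat 4.0.1 and R 4.0.3, which were not used here. UMIs were summed over the kept cells of a gate and divided by all UMIs of those cells, which totalled between 41771994 and 74832504 in the embryonic and hypoblast gates and 1082652 in the HAND1-glycophorin gate of D6. Doublets were limited by the upper UMI limit alone, with no doublet caller, and 20000 UMIs was tried instead.

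With 1 library per day there was no test. Poisson, binomial and conditional binomial intervals came from scipy 1.17.1 with numpy 2.4.6 and Python 3.11.15. Coverage of the ratio intervals and the calls were checked on simulated Poisson counts, the model that the intervals assume. That check cannot speak to UMIs that cluster in some cells. A level of 0 was set to 3 counts in ratios. Thinning drew the lower UMI limit from each kept cell once, with a fixed seed. Named were the 8 genes, the 3 nearest to each by profile (pseudocount 1), and from the related and marker lists up to 4 called genes per list at 20 or more CPM, with markers at 0. The genes and lists were chosen with earlier results of these data known. *PDGFRA* was used as a hypoblast marker in the study. Promoter windows came from RefSeq GRCh38.p14, the assembly that hg38 names. Alternatives were other cell filters, gates, totals, thinning, call limits and measures of level.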

Additional observations from a re-analysis of the deposited data

Results flagged for a closer look

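*PDGFB* moved in opposite directions between D4 and D6 in the compartments, which is what singled it out: its log2 ratio of D6 over D4 was −0.65 in the embryonic gate and 0.97 in the hypoblast gate. With 1 library per day the difference was not tested. Neither value passed 2-fold, and they rest on 62 and 51 UMIs in the embryonic gate and 52 and 89 in the hypoblast gate. The *TAGLN* cells that held 23 of the 62 embryonic UMIs at D4 were fewer at D6, 96 against 363, and the part of that in the embryonic value was not tested.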

How the results depend on the processing

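No paired analysis was possible because the replicate numbers in the labels belong to the bisulfite samples, which were not analysed here, and each day of the single-cell data is 1 library. Of 140 counts of called genes under alternatives, 133 stayed within 1.5 times the reported count and 7 did not. Between days in the hypoblast gate, the genes called higher were 2 in place of 1 with thinned cells, with stricter gates and with looser gates, *PDGFB* being the addition each time, and 5 with a limit of 1.5-fold (*PDGFRA*, *PDGFA*, *PDGFB*, *VEGFA* and *KDR*). The 1.5-fold limit also gave 1 gene called higher (*VEGFA*) and 1 called lower (*PDGFB*) between days in the embryonic gate, in place of 0. Shares of all genes called are given in this report for the reported settings only. The counts under alternatives have no such share beside them. They describe how the calls depend on the settings and are not read as a result about the named genes. *HAND1* cells without the glycophorin requirement gave 0 genes called lower than the embryonic gate in place of 1, and the log2 ratio of *PDGFA* to the hypoblast gate reversed from −1.12 to 0.95. Of 464 ratios of single genes, 442 stayed within the interval of the reported value, 21 moved out of it and 1 reversed. Restricting the HAND1-glycophorin gate to cells outside the hypoblast gate was added after seeing the data, as was the profile ranking without the group of 2 cells. The former gave *KDR* 1.40 over the embryonic gate and 3.48 over the hypoblast gate, and *PDGFRA* 1.62 and −2.02. Depth limits *PDGFRB*, *PDGFB* and *PDGFC*, each under 4 CPM in the embryonic and hypoblast gates, and every value of the 78 *HAND1*-glycophorin cells.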
